A study of Mus musculus with 7 samples.

Results

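The AP-1 immediate early genes examined here were Fos, Fosb, Fosl1, Fosl2, Jun, Junb, Jund and Atf3, taken by symbol from a count table of 35976 genes from mouse amygdala. All 8 were in the table, and 7 of them passed the filter on low counts. The libraries came from male C57BL/6J mice whose amygdala had received adeno-associated virus with Cas9 under the astrocyte promoter GfaABC1D and a guide RNA. In the sgEgfr group (3 libraries) the guide targeted Egfr, the receptor for epidermal growth factor, and in the sgRosa control group (4 libraries) it targeted the Rosa26 locus. After at least 2 weeks of expression, mice of both groups were restrained on 7 days, fear conditioned on 1 day and given extinction sessions on 3 days, so no unstressed mice enter the comparison. The tissue was digested with papain and cells were pulled down with beads against ACSA-2, a surface antigen of astrocytes, before 5 ng of RNA was made into a library. The labels give neither the age of the mice nor whether each library came from its own mouse, so the spread behind each p-value may be technical.

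AP-1 is a dimer of basic leucine zipper proteins. FOS proteins bind DNA only as partners of JUN proteins, whereas JUN proteins also pair among themselves and with ATF proteins such as ATF3. Fos, Fosb, Jun, Junb and Atf3 are transcribed within minutes of growth factor, calcium or stress signals, through kinases that include ERK and JNK. In brain they are widely used as marks of recent cell activity, and enzymatic dissociation of fresh tissue is known to switch them on together with heat shock genes. Jund is more steadily expressed, and Fosl1 and Fosl2 usually follow the first wave.

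Depth ran from 5852870 to 22579222 counts per library. Between the libraries sgRosa 3 and sgRosa 4 the counts agreed almost within sampling noise (chi-square per degree of freedom 1.04, against 34.3 to 121 for the other 8 pairs with the same guide). They were summed as sgRosa 3+4 and counted once, leaving 3 samples per group. Below, sample values follow the order sgRosa 1, 2 and 3+4 for the controls and 1, 2 and 3 for sgEgfr. Egfr itself had a log2 fold change of -0.13 (SE 0.54, edgeR adjusted p = 0.997). The astrocyte label was checked against marker genes: the 15 astrocyte markers took 0.531% to 1.34% of counts and the 12 oligodendrocyte markers 8.47% to 15.8%. Levels therefore describe a mixture of cells, in which a change in the number of cells of a type and a change in RNA per cell cannot be told apart.

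The promoters of Fos, Jun, Junb and Atf3 are shown because these genes are the most abundant fast-responding members or varied most between samples. Each sequence gives the 250 bases before the start site that RefSeq places on GRCm38.p6, 5′ to 3′, with capitals marking TGACG on either strand, TGACATCA and TATAAA.
Fos, chr12:85473640-85473889, plus strand: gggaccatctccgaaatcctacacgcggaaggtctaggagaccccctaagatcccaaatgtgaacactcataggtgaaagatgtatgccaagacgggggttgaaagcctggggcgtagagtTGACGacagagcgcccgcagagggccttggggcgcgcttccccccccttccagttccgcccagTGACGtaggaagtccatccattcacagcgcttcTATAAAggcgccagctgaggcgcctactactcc
Jun, chr4:95052223-95052472, minus strand: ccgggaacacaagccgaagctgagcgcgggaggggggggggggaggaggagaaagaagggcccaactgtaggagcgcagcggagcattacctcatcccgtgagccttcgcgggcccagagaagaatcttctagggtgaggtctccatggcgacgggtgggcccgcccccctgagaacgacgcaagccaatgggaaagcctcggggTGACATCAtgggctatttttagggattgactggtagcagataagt
Junb, chr8:84978749-84978998, minus strand: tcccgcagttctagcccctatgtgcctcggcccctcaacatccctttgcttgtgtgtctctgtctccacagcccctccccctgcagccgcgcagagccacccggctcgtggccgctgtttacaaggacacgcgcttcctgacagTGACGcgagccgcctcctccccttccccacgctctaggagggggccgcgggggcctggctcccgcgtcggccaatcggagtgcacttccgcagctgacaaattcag
Atf3, chr1:191183334-191183583, minus strand: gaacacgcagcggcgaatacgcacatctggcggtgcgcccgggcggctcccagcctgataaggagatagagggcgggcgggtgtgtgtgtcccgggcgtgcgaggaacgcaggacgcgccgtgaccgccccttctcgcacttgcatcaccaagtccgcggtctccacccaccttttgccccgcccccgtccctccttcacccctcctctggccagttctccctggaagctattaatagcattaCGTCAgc
TGACG is the core of the cyclic AMP response element, which CREB and ATF proteins bind, and TGACATCA is the JUN and ATF site of the Jun promoter. Of 7 members with a promoter in the table, 4 held TGACG (Fos, Fosb, Junb and Atf3), against 17.8% of 32851 promoters of the same length, counting both strands. These 4 promoters had a GC content of 58.4% to 68.8%, against a median of 52.4% over all promoters. The part of GC content in the share with TGACG was not tested. TGACATCA was found in Jun and in 2.93% of all promoters, and TATAAA in Fos and in 12.4%. The AP-1 site TGANTCA was found in 0 of 7 members and 6.75% of promoters. GGGCGG, the Sp1 box, was found in 5 of 7 members and 32.7% of promoters, and CCAAT in 2 of 7 and 33.8%. The serum response element CCWWWWWWGG (W is A or T) was found in 0 of 7 and 1.47%, within these 250 bases only. The heat shock motif GAANNTTC was found in Jun and Fosl2 and in 6.69% of promoters, and its other phase TTCNNGAA in 0 of 7 and 7.17%. A match of this kind is a description of the letters and not of binding. The windows follow RefSeq start sites, which need not be the GENCODE gene starts given below. That of Jund (70697489 to 70697738) ends before its GENCODE start at 70698949, and those of Atf3 and Fosl2 lie inside the GENCODE genes.

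Per kilobase of exon, Fos was the most abundant member and Fosl1 the least. The median over the 6 samples, in CPM (counts scaled to a common library size, with TMM factors) per kilobase of exon, was 309.8 for Fos, 206 for Jun, 136 for Junb and 78.2 for Jund. It was 17.9 for Atf3, 9.92 for Fosb, 0.484 for Fosl2 and 0.0486 for Fosl1. Neighbours in this order had overlapping ranges from Fos down to Fosb, although Fos lay above Jun, and Atf3 above Fosb, in 6 of 6 samples. Jun lay above Junb, Junb above Jund and Jund above Atf3 in 5 of 6. The exon lengths were those of GENCODE M21, which need not be those used for counting. The 8 genes together took 0.104%, 0.224% and 0.118% of counts in sgRosa 1, 2 and 3+4, and 0.181%, 0.343% and 0.315% in sgEgfr 1 to 3. Fos and Jun made up 56.7% to 81.7% of that sum.

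**Figure D1:**
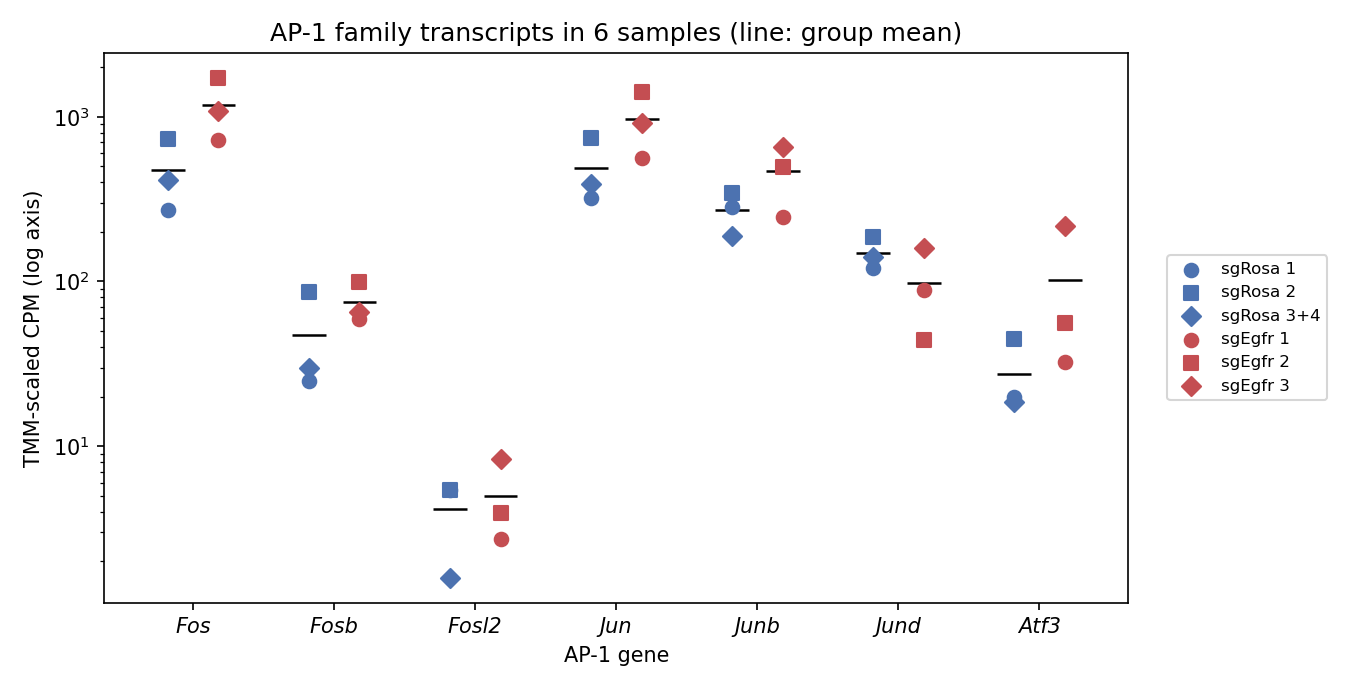
TMM-scaled CPM (vertical log axis) of the 7 members that passed the filter, with 1 point per sample, sgRosa in blue and sgEgfr in red, and a line at each group mean (n = 3). Fos in sgRosa 2 (732 CPM) and sgEgfr 1 (726 CPM) lies at nearly the same height, and the 2 groups overlap for every gene drawn.

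No member passed the test between guides, and 6 of the 7 tested had a positive log2 fold change. The members with a positive value were Fos, Fosb, Fosl2, Jun, Junb and Atf3, and Jund had a negative one. Of all 14936 genes tested with edgeR, 0% were called at an adjusted p under 0.05, and 52.9% had a positive value. At an unadjusted p under 0.05 there were 2 members, Fos and Atf3, both positive, against 2.68% of all genes and 1.31% that were positive. This number varied over refits, and the count over all genes tested is given in brackets. It was 0 without sgRosa 1 (236 of 15600) or without sgRosa 3 and 4 (960 of 15455). It was also 0 when the heat shock score entered the fit (163 of 14936). It was 1 without sgEgfr 2 (294 of 15467), and 4 without sgRosa 2 (466 of 15334) or without sgEgfr 1 (314 of 15488). It was also 4 with DESeq2 (565 of 24574) or no filter on low counts (685 of 24809). The same number, 4, came with replicate numbers as a block (705 of 14936) or 7 separate libraries (581 of 15085). In the main fit, 11 of 26 other immediate early genes had an unadjusted edgeR p under 0.05, all positive. So had 4 of 14 neuron markers, 4 of 12 endothelial markers and 2 of 18 heat shock genes. Of the astrocyte, oligodendrocyte and microglia markers 0 did. A value above 1 on the log2 scale was found for Fos and Atf3, against 3.92% of all genes. The median over the 7 members was 0.78, against 0.02 over all genes tested. The median was 1.45 without sgRosa 2 and 0.47 without sgRosa 1 and sgEgfr 3. It was 0.33 when the heat shock score entered the fit, and 1.54 or 1.62 when a neuron or endothelial marker score did. The neuron score was 3.06 to 3.77 in sgRosa and 3.79 to 4.03 in sgEgfr. The endothelial score was 2.04 to 2.79 and 2.81 to 2.87. Both scores thus lay apart between the guides, so fits with them, here and below, cannot separate the score from the guide. CPM ranges of the 2 groups overlapped for all 7, where 7.61% of genes tested had ranges apart and 3.76% had sgEgfr above.

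Fos, the first FOS protein to appear after a stimulus, lies on chromosome 12 (85473890 to 85477273, GRCm38, plus strand). Its level was 273, 732 and 411 CPM with sgRosa and 726, 1719 and 1079.6 CPM with sgEgfr. Thus sgRosa 2 lay just above the lowest sgEgfr sample, and the group means differed through 2 low control samples and 2 high sgEgfr samples. The means were 472 ± 236 CPM and 1175 ± 503 CPM (SD, n = 3 each), a log2 fold change of 1.32 (SE 0.44, 95% interval 0.28 to 2.35, edgeR adjusted p = 0.997). When the heat shock score (defined with the co-variation below) entered the fit it was 0.56, with the endothelial score 2.15 and with the neuron score 2.03, none called. The endothelial and neuron scores lay apart between the guides, so the values with them cannot separate the score from the guide.

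Fosb encodes a FOS protein whose truncated, long-lived form builds up with repeated stimulation, and the counts do not separate the forms. The gene (chromosome 7, 19302696 to 19310051, minus strand) stood at 24.8, 86.4 and 29.7 CPM with sgRosa and at 58.8, 99.7 and 65.01 CPM with sgEgfr. The control sample sgRosa 2 lay above 2 of the 3 sgEgfr samples. The log2 fold change was 0.66 (SE 0.47, 95% interval -0.44 to 1.77, edgeR adjusted p = 0.997). It moved to 1.45 without sgRosa 2, 0.36 without sgRosa 1 and 0.38 without sgEgfr 2, and was 0.01 when the heat shock score entered the fit and 1.72 or 1.65 when the endothelial or neuron score did.

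The late FOS members were scarce. Fosl2 (chromosome 5, 32135801 to 32157842, plus strand) stood at 5.43, 5.44 and 1.59 CPM with sgRosa and at 2.73, 3.93 and 8.31 CPM with sgEgfr. Its lowest sample was a control and its highest an sgEgfr sample, with the other 4 in between. Its log2 fold change was 0.27 (SE 0.59, 95% interval -1.11 to 1.65, edgeR adjusted p = 0.997), and -0.32 without sgEgfr 3. Fosl1 (chromosome 19, 5447547 to 5455946, plus strand) had 1, 5, 1 and 1 counts in the 4 sgRosa libraries, against 0, 5 and 0 in the 3 of sgEgfr. It was not tested, and a count of 0 allowed up to 3 counts, or 0.20 CPM in sgEgfr 1 and 0.133 CPM in sgEgfr 3.

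Jun, the JUN protein that JNK activates by phosphorylation, is a gene without introns on chromosome 4 (95049034 to 95052222, minus strand). It stood at 320.2, 748 and 388 CPM with sgRosa and at 565, 1416 and 919 CPM with sgEgfr. The order of the 6 samples was that of Fos, and sgRosa 2 again lay above sgEgfr 1. The log2 fold change was 0.99 (SE 0.43, 95% interval -0.01 to 1.99, edgeR adjusted p = 0.997), with 0.59 when sgEgfr 2 was left out, 0.30 when the heat shock score entered the fit and 1.62 or 1.54 when the endothelial or neuron score did.

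Junb, a JUN protein that can also restrain Jun, lies on chromosome 8 (84974484 to 84978718, minus strand). It stood at 282, 345 and 189.6 CPM with sgRosa and at 245, 497 and 656 CPM with sgEgfr. The sgEgfr 1 sample lay below 2 of the 3 controls, and sgEgfr 3 rather than sgEgfr 2 was highest. The log2 fold change was 0.78 (SE 0.38, 95% interval -0.11 to 1.66, edgeR adjusted p = 0.997). It was 0.45 without sgEgfr 3 and 0.37 with limma-voom and quality weights.

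Jund, a JUN protein often present in resting cells, was the member with a negative value. It lies on chromosome 8 (70698949 to 70700616, plus strand) and stood at 121, 187 and 139.96 CPM with sgRosa and at 88.4, 44.0 and 159 CPM with sgEgfr. The lowest value belonged to sgEgfr 2, the sample with the most Fos, Fosb and Jun. The log2 fold change was -0.62 (SE 0.43, 95% interval -1.61 to 0.37, edgeR adjusted p = 0.997). It was -0.29 without sgEgfr 2, -1.17 without sgEgfr 3 and -0.25 when the endothelial score entered the fit. Its longest transcript has a GC content of 67.1%, at percentile 99.9 of genes tested. The 50 genes tested with a GC content of 65% or more were compared with each gene's mean log2 CPM. Their median was 0.07, -0.11 and 0.27 with sgRosa and -0.03, -0.32 and 0.20 with sgEgfr. It was lowest in sgEgfr 2, where Jund was lowest, but below 0 in sgRosa 2, where Jund was highest. The part of GC content in the value of Jund was not tested. Junb had a GC content of 62.6%, and the other tested members had 51.9% to 56.0%.

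Atf3, an ATF protein induced by stress and injury signals, varied most, with its highest sample 11.8-fold above its lowest. The gene lies on chromosome 1 (191170296 to 191218039, minus strand). It stood at 19.8, 44.4 and 18.5 CPM with sgRosa and at 32.5, 55.6 and 218 CPM with sgEgfr. The sgEgfr 3 sample stood far above the rest, and sgEgfr 1 lay below sgRosa 2. The log2 fold change of 1.89 (SE 0.71, 95% interval 0.23 to 3.55, edgeR adjusted p = 0.997) was 0.67 without sgEgfr 3, 2.41 without sgRosa 2 and 1.05 when the heat shock score entered the fit. Markers of ependymal cells and choroid plexus took 0.0963% of counts in sgEgfr 3, 0.0374% in sgRosa 3+4 and at most 0.0104% in the other 4 samples. The sgRosa 3+4 sample had the lowest Atf3 level. Of the 9 markers of this list that were tested, 8 had a positive log2 fold change, and Tmem212, Folr1 and Kl were at 0 counts in at least 1 library. Ttr went the other way (log2 fold change -3.01), with 46.2 CPM in sgRosa 1 and 0.612 CPM in sgEgfr 3. The part of these markers in the Atf3 value was not tested.

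**Figure D2:**
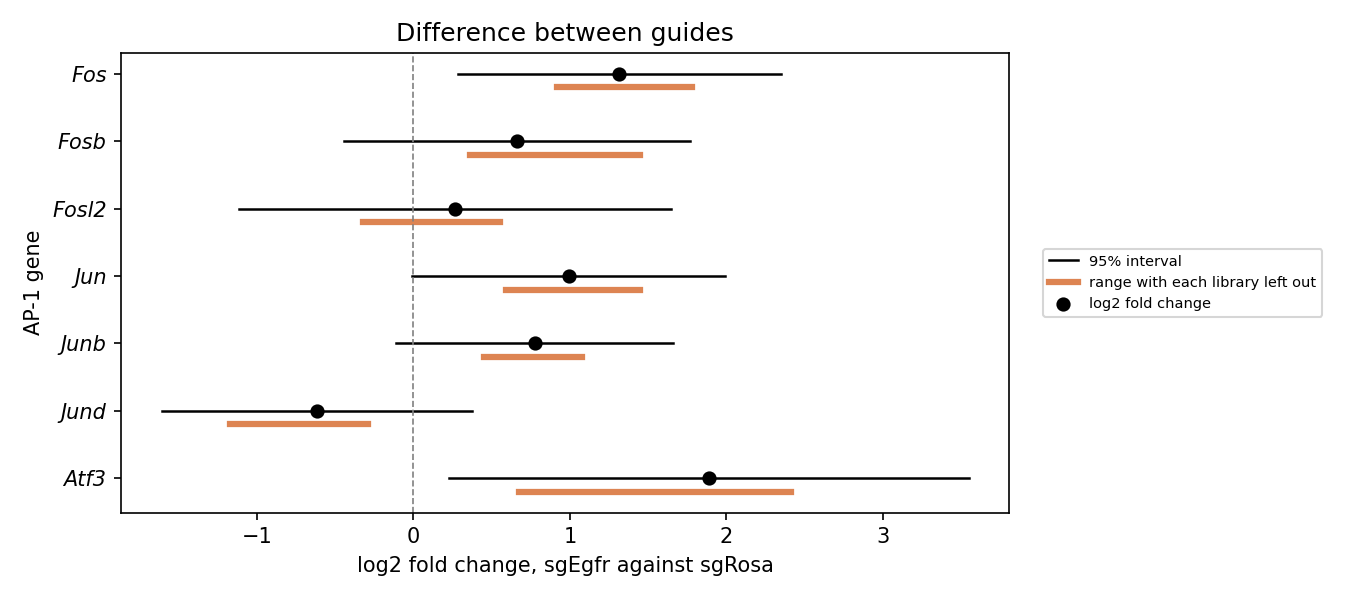
Log2 fold change of each tested member, sgEgfr against sgRosa (horizontal axis), with its 95% interval in black and, in orange, the range of values when each library was left out in turn. Fosl2 crosses 0 within the orange range (-0.32 to 0.56), Jund stays negative (-1.17 to -0.29) and the other 5 stay positive.

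The balance between members, which does not depend on scaling between libraries, was compared as count ratios within each sample. Among the 21 pairs of tested members, 6 had ratios that did not overlap between the groups, against 7.91% of all pairs of genes tested with a count in every sample. With the 7 libraries taken singly the number was 5, since Fosl2 to Atf3 then overlapped. The 7.91% holds for the 6 samples, and no share over all pairs of genes was computed for single libraries. The 6 pairs share members, and each had p = 0.1 in an exact two-sided permutation test (0.35 adjusted over the 21 pairs). No split of 3 and 3 can undercut that p. Fos to Jun varied least of all 21, by 1.51-fold over the samples. It was 0.851, 0.979 and 1.06 in sgRosa 1, 2 and 3+4, and 1.29, 1.21 and 1.18 in sgEgfr 1 to 3. Fos counts thus stood near Jun counts in the controls and above them in each sgEgfr sample, and taken as separate libraries sgRosa 3 and sgRosa 4 had 1.04 and 1.08. The mean difference was 0.35 on the log2 scale, with a pooled SD within groups of 0.12, and 0.27 to 0.38 with each library left out.

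Jund took part in 4 of the 6 pairs. Jun to Jund was 2.65, 3.99 and 2.77 in sgRosa 1, 2 and 3+4 and 6.39, 32.2 and 5.76 in sgEgfr 1 to 3, so that the sgEgfr 2 sample stood far from all others. Without that sample the mean difference fell from 1.78 to 0.98 on the log2 scale. Fos to Jund ranged from 2.25 to 3.91 in sgRosa and from 6.77 to 39.1 in sgEgfr, and Junb to Jund from 1.35 to 2.33 and from 2.77 to 11.3. Jund to Atf3 ranged from 4.21 to 7.56 in sgRosa and from 0.731 to 2.72 in sgEgfr. The sixth pair, Fosl2 to Atf3, was at 0.0859 to 0.275 in sgRosa and 0.0381 to 0.0838 in sgEgfr. It stood apart only with sgRosa 3 and sgRosa 4 summed: sgRosa 3 alone had 0.0730, below sgEgfr 1 at 0.0838. The GC values given for Jund bear on the 4 pairs that contain it, and their part was not tested.

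**Figure D3:**
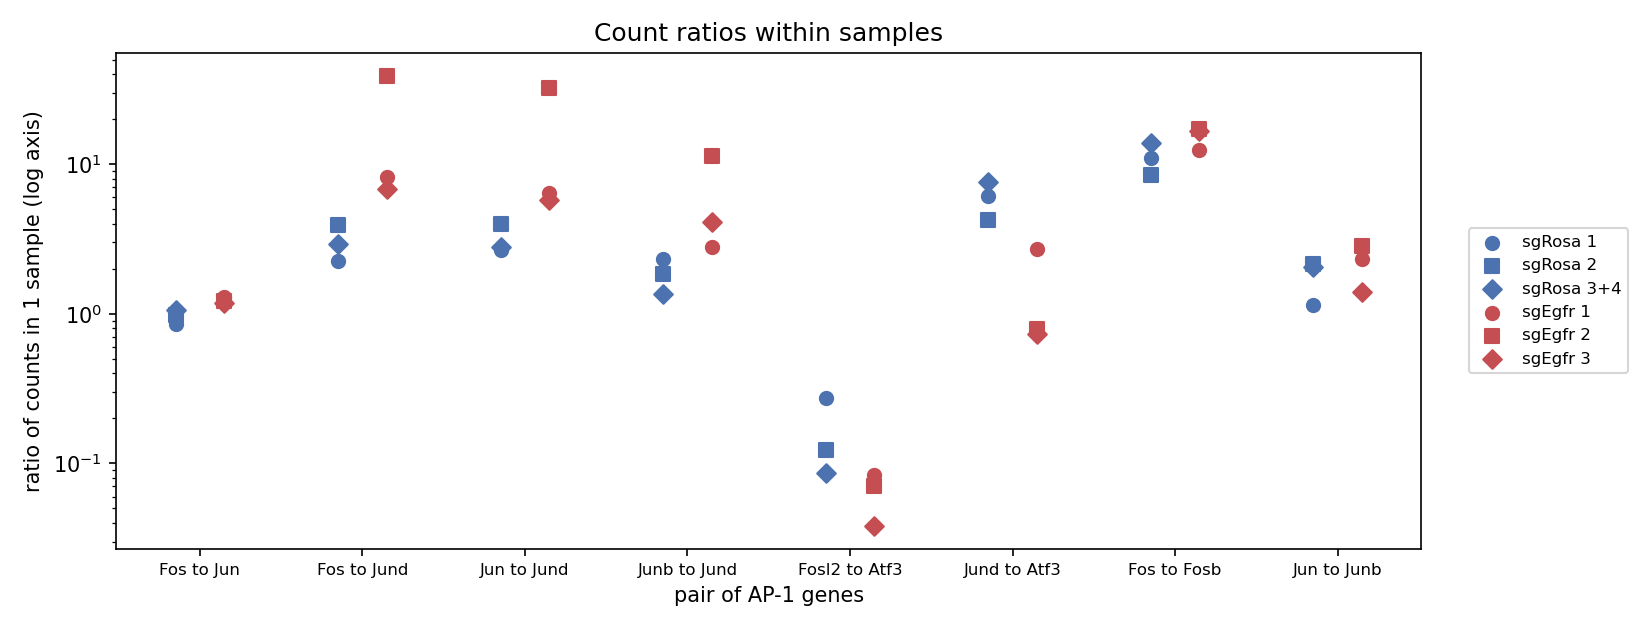
Ratios of counts within each sample (vertical log axis) for the 6 pairs of members whose groups did not overlap and, at the right, for Fos to Fosb and Jun to Junb, which did. Fos to Jun stays between 0.851 and 1.29 in all 6 samples, whereas Fos to Jund reaches 39.1 in sgEgfr 2.

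Members varied together to different degrees. Over the 21 pairs, Pearson correlations of log2 CPM over the 6 samples ran from -0.50 to 0.98, with 17 positive, and 1 pair passed an adjusted p under 0.05. That pair was Fos and Jun, with r = 0.98 (exact permutation p = 0.00139, adjusted 0.0292, n = 6) and Spearman rho = 1 (exact permutation p = 0.00278, adjusted 0.0583). Their r was 0.95 without sgRosa 1 and sgEgfr 2, the 2 samples farthest from the median of Fos. Junb and Atf3, which were both highest in sgEgfr 3, had r = 0.91 (exact permutation p = 0.00556, adjusted 0.0583, n = 6) and rho = 0.94 (exact permutation p = 0.0167, adjusted 0.0875), and r = 0.76 without sgEgfr 3 and sgRosa 3+4. The 4 negative pairs all contained Jund, with -0.50 for Fos and Jund (exact permutation p = 0.304, adjusted 0.491, n = 6), rho = -0.09 (exact permutation p = 0.919, adjusted 0.965) and r = 0.14 without sgRosa 1 and sgEgfr 2.

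Heat shock genes encode chaperones and co-chaperones that respond to heat, misfolded protein and handling, and their co-variation with AP-1 was examined per sample. The score was the mean log2 CPM of 18 heat shock genes, and it was 5.96, 6.50 and 6.48 in sgRosa 1, 2 and 3+4 and 6.48, 6.73 and 6.71 in sgEgfr 1 to 3. The sgRosa 1 sample stood apart at the low end, where Fos, Fosb and Jun were also lowest, and sgEgfr 2 had the highest score. Fos had r = 0.89 (exact permutation p = 0.0181, adjusted 0.0681 over 7 members, n = 6) and rho = 0.94 (exact permutation p = 0.0167, adjusted 0.0583). Jun had r = 0.84 (exact permutation p = 0.0194, adjusted 0.0681, n = 6) and rho = 0.94 (exact permutation p = 0.0167, adjusted 0.0583). No member passed an adjusted p under 0.05. Without sgRosa 1 and sgEgfr 2, the samples farthest from the median score, r was 0.76 for Fos and 0.74 for Jun. The samples left had scores of 6.50 (sgRosa 2), 6.48 (sgRosa 3+4 and sgEgfr 1) and 6.71 (sgEgfr 3). These r values therefore rest on sgEgfr 3 and cannot show whether co-variation holds among the samples left. As deviations from the group means, which removes the difference between guides, r was 0.81 for Fos (exact permutation p = 0.0653, adjusted 0.356, n = 6) and 0.71 for Jun (exact permutation p = 0.114, adjusted 0.356, n = 6). With the near-identical pair Hspa1a and Hspa1b left out of the score, r was 0.81 for Fos and 0.74 for Jun (exact permutation adjusted p = 0.279 each, n = 6), and 0.60 for Fosb (exact permutation adjusted p = 0.35, n = 6).

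For the other members r over all 6 samples was lower than for Fos and Jun, and no difference between correlations was tested. Fosb had r = 0.77 (exact permutation p = 0.0361, adjusted 0.0843, n = 6) and rho = 0.89 (exact permutation p = 0.0333, adjusted 0.0778). Without sgRosa 1 and sgEgfr 2 its r was 0.28, which, as for Fos and Jun, cannot show whether co-variation holds among the samples left. Atf3 had r = 0.67 (exact permutation p = 0.183, adjusted 0.321, n = 6) and rho = 0.77 (exact permutation p = 0.103, adjusted 0.18). Junb had r = 0.54 (exact permutation p = 0.279, adjusted 0.391, n = 6) and rho = 0.71 (exact permutation p = 0.136, adjusted 0.191). For Atf3 and Junb, r was 0.96 and 0.92 without the same 2 samples. As for Fos and Jun, these values rest on sgEgfr 3, where both Atf3 and Junb were highest. Jund had r = -0.25 (exact permutation p = 0.603, adjusted 0.703, n = 6) with rho = 0.03 (exact permutation p = 1, adjusted 1), and Fosl2 r = 0.01 (exact permutation p = 0.960, adjusted 0.960) with rho = 0.31 (exact permutation p = 0.564, adjusted 0.658). Without the same 2 samples r was 0.35 for Jund and 0.78 for Fosl2, which rest on sgEgfr 3 in the same way.

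**Figure D4:**
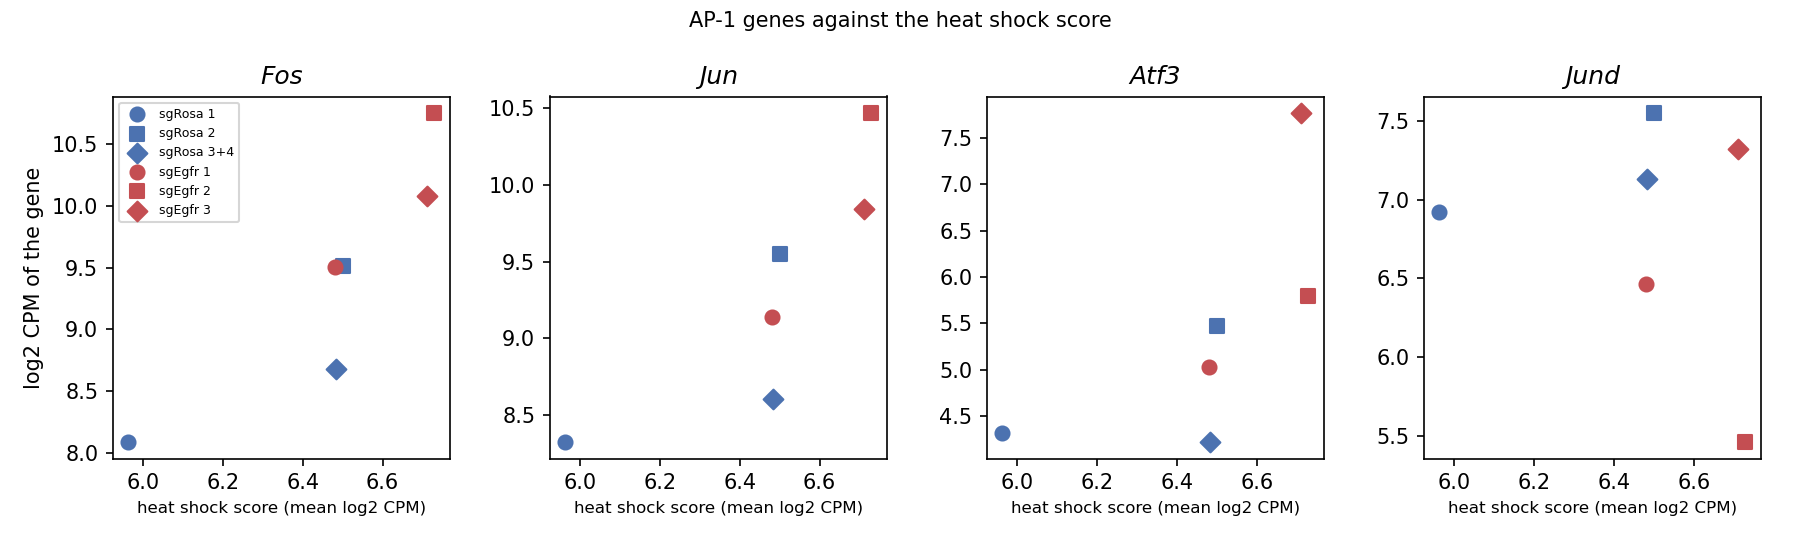
Log2 CPM of Fos, Jun, Atf3 and Jund (vertical axes, each with its own range) against the mean log2 CPM of 18 heat shock genes (horizontal axis), 1 point per sample. Fos and Jun run from sgRosa 1 at a score of 5.96 to sgEgfr 2 at 6.73, Atf3 is highest in sgEgfr 3, and Jund is lowest in sgEgfr 2.

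Of the 18 heat shock genes, all tested, 15 had a positive log2 fold change and 0 were called, with a median of 0.20 against 0.02 over all genes. This median was 0.095 without sgRosa 1, 0.12 without sgEgfr 2 and 0.080 without sgRosa 1 and sgEgfr 3. It was 0.55 or 0.42 when the endothelial or neuron score entered the fit. The 4 with the smallest p were Hspe1, a mitochondrial co-chaperonin (0.48), Hspb1, a small heat shock protein (1.61), Hsph1, a nucleotide exchange factor of chaperones (0.50), and Dnajb1, a J-domain co-chaperone (0.81). Dnajb1 stood at 132, 287 and 187 CPM with sgRosa and at 215, 626 and 221 CPM with sgEgfr. Its highest sample, sgEgfr 2, was also that of Fos and Jun, and its lowest was sgRosa 1. Among 12 relations of Fos, Jun and Atf3 with these 4 genes, 0 passed an adjusted p under 0.05. Dnajb1 with Jun had r = 0.90 (exact permutation p = 0.00833, adjusted 0.10, n = 6), rho = 0.94 (exact permutation p = 0.0167, adjusted 0.10) and r = 0.65 without sgEgfr 2 and sgRosa 1. Dnajb1 with Atf3 had r = 0.34 (exact permutation p = 0.454, adjusted 0.476, n = 6), rho = 0.77 (exact permutation p = 0.103, adjusted 0.233) and r = 0.26 without the same samples.

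Markers of 2 other cell types moved with Fos in part of the samples. Oligodendrocyte markers took 8.47%, 12.8% and 10.8% of counts in sgRosa 1, 2 and 3+4 and 11.6%, 15.8% and 9.28% in sgEgfr 1 to 3. Microglia markers took 0.0164%, 0.0329% and 0.0255% in sgRosa and 0.0292%, 0.0452% and 0.0207% in sgEgfr, in the same order of samples. Apart from sgEgfr 3, both lists put the samples in the order that Fos did, from sgRosa 1 to sgEgfr 2. Astrocyte markers took 0.531% of counts in sgRosa 2 and 0.835% in sgEgfr 2, against 1.13% to 1.34% in the other samples. In each group the sample with the most Fos thus had the smallest astrocyte share. Over all samples that share was smallest in sgRosa 2, whereas Fos was highest in sgEgfr 2. Of the tested markers, 5 of 12 for oligodendrocytes and 12 of 12 for microglia had a positive log2 fold change, and none was at 0 counts in any library. Neuron markers took 0.0316% to 0.0489% in sgRosa and 0.0445% to 0.0568% in sgEgfr, with 13 of 14 tested markers positive and Slc17a7 at 0 counts in at least 1 library. Endothelial markers took 0.00672% to 0.00921% and 0.00924% to 0.0126%, with 10 of 12 positive and none at 0 counts. Oligodendrocyte precursor markers took 0.0136%, 0.0322% and 0.0119% in sgRosa and 0.0537%, 0.0266% and 0.0269% in sgEgfr, with 8 of 8 positive, a median log2 fold change of 0.88 and none at 0 counts. Among them Pdgfra, the growth factor receptor that marks these precursors, had 1.33 (SE 0.41, edgeR adjusted p = 0.997), with every sgEgfr sample above every control, as for 3.76% of all genes tested. It is named after its values were seen. The part of these cell types in the levels of the AP-1 genes was not tested.

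Other immediate early genes, from receptors to decay factors that are induced with AP-1, had values on the same side as most members. Of 26 tested, 19 had a positive log2 fold change, 0 were called, and the median was 0.74. The median was 0.44 without sgEgfr 3, 0.46 without sgRosa 1 and sgEgfr 3, and 0.40 when the heat shock score entered the fit. The 4 with the smallest p were Gadd45g, a stress-inducible growth arrest factor (1.23, SE 0.38), Zfp36, which promotes decay of short-lived mRNAs (1.55, SE 0.50), Socs3, a feedback inhibitor of JAK-STAT signals (1.30, SE 0.44), and Maff, a small MAF protein (1.02, SE 0.35). Gadd45g stood at 32.9, 33.9 and 42.4 CPM with sgRosa and at 63.7, 49.4 and 142 CPM with sgEgfr, so that its groups did not overlap. Of all genes tested, 3.76% had sgEgfr above in this way. Zfp36 stood at 34.1, 82.1 and 38.8 CPM with sgRosa and at 62.3, 208 and 185 CPM with sgEgfr, with sgRosa 2 above sgEgfr 1 as for Fos and Jun.

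Basic leucine zipper proteins that pair with AP-1 or resemble it showed no shared side. Of 18 tested of 22, 10 had a positive log2 fold change, 0 were called, and the median was 0.09. It was -0.007 without sgEgfr 2 and 0.17 without sgEgfr 3, and it was -0.009 with no filter on low counts and -0.006 with DESeq2. Maff again had the smallest p, with levels of 2.89, 3.87 and 3.24 CPM in the controls and 4.44, 7.07 and 8.74 CPM in the sgEgfr samples. The other named genes were Mafk, a small MAF protein (0.55, SE 0.24), Nfe2l2, which drives antioxidant genes (-0.34, SE 0.15), and Jdp2, a JUN partner that represses AP-1 (-0.82, SE 0.45). The groups did not overlap for Maff, Mafk and Nfe2l2, against 7.61% of all genes tested, and these were taken for their small p.

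Kinases and regulators upstream of AP-1 had values near those of all genes. Of 27 tested, 15 had a positive log2 fold change, 0 were called, and the median was 0.04. Mapk3, the ERK kinase also known as ERK1, had -0.53 (SE 0.16), Dusp16, a phosphatase of JNK, -0.48 (SE 0.19), Dusp1, a phosphatase that is itself an immediate early gene, 1.16 (SE 0.46), and Map2k7, an activator of JNK, 0.32 (SE 0.17). Dusp1 stood at 175, 369 and 202 CPM with sgRosa and at 246, 671 and 745 CPM with sgEgfr, with sgRosa 2 above sgEgfr 1. For Mapk3 (sgEgfr below) and Map2k7 (sgEgfr above) the groups did not overlap, against 7.61% of all genes tested.

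Textbook target genes of AP-1 were tested for 13 of 21, the others being too low. Of the 13, 9 had a positive log2 fold change and 0 were called, and the median was 0.68. It was 0.11 without sgEgfr 2 and 0.32 without sgRosa 1, and 0.25 with limma-voom. Ccnd1, a cyclin of the G1 phase, stood at 29.1, 39.9 and 18.6 CPM with sgRosa and at 63.5, 54.98 and 35.4 CPM with sgEgfr. The highest Ccnd1 level was in sgEgfr 1, which also had the largest share of oligodendrocyte precursor markers (0.0537%), and the lowest in sgRosa 3+4, which had the smallest (0.0119%). The part of these markers in the level of Ccnd1 was not tested. Plaur, the urokinase receptor, had 1.09 (SE 0.45), Vegfa, an angiogenic growth factor, -0.78 (SE 0.37), and Spp1, osteopontin, 1.01 (SE 0.60).

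The genes most alike to Fos, Jun and Atf3 over the 6 samples were sought among 12858 genes by Pearson r of log2 CPM, as a description without a test. They were Nt5c3 (0.99), Spidr (0.99) and Arrdc2 (0.98) for Fos. For Jun they were Dstn (0.99), Rnmt (0.99) and Pinx1 (0.98), and for Atf3 they were Nmd3 (0.99), Zscan21 (0.98) and Nr4a1 (0.98). With 6 samples, 28, 23 and 10 of the 12858 genes reached an r over 0.95 with Fos, Jun and Atf3. The number that unrelated genes would reach was not computed, so these genes are not shown to vary with the members. Arrdc2 and Nr4a1 varied over a wide range, Arrdc2 from 29.4 to 129 CPM and Nr4a1, an orphan nuclear receptor and immediate early gene, from 84.8 to 343 CPM. Spidr ranged only from 11.9 to 16.8 CPM.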

How the data were processed

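RNA-seq was done on 7 libraries, and the values used are whole-number read counts per gene that the authors deposited without normalization. Per the submitters' processing notes, they used featureCounts 2.0.1, STAR 2.7.5c, edgeR 3.42.4 and fastp 0.23.2, with MultiQC 1.11 and FastQC 0.11.9 for quality, on mm10. For annotation, strandedness and multi-mapped reads the setting is not given in these sources, and overlapping, antisense and near-identical genes (Hspa1a and Hspa1b among them) are uncertain. Counts in the 7 per-library files were identical to the table. Library pairs were compared by chi-square over genes whose pair total was 20 or more.

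After filterByExpr (min.count 10, min.total.count 15), 14936 genes remained. With TMM factors, the quasi-likelihood test of edgeR 4.0.16 (glmQLFit, glmQLFTest; R 4.3.3) compared the guides without covariates, with Benjamini-Hochberg adjustment at 0.05. Log2 CPM used a prior count of 2. Permutation tests were exact and two-sided, over samples. The script was tested on simulated data. Limits from counts of 0 cover counting error only. Alternatives used limma 3.58.1 and DESeq2 1.42.0, and figures matplotlib 3.10.9. Promoters came from RefSeq (GRCm38.p6), gene positions, exon lengths and GC content from GENCODE M21, and 93.0% of genes tested had a GC value.

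The members and gene lists were chosen with earlier results of these data known. From each list the text names at most 4 genes with the smallest p, and for Fos, Jun and Atf3 the 3 genes most alike among those with an average log2 CPM of at least 1. The scores used as covariates were mean log2 CPM of the list.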

Additional observations from a re-analysis of the deposited data

How the results depend on the processing

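The counts of called genes and of called members were 0 in all 22 refits, and that of members also at an adjusted p under 0.1, with 401 genes at an unadjusted p under 0.05 in edgeR, 565 in DESeq2, 418 in limma-voom and 793 with quality weights. Of the refitted log2 fold changes and ratios of members, 167 kept their sign and 5 changed it. All 5 were of Fosl2, at -0.086 with the neuron score, -0.16 with the endothelial score, -0.32 without sgEgfr 3, -0.11 without sgRosa 3 and 4 and -0.082 without sgRosa 1 and sgEgfr 3. The last of these settings was chosen after seeing the data, as were the refits of the ratios, the number of non-overlapping pairs over single libraries and the number of members with a positive value, which was 5 or 6 throughout. With each library left out, Atf3 ranged from 0.67 to 2.41, Fos from 0.92 to 1.78, Jun from 0.59 to 1.45, Junb from 0.45 to 1.08, Fosb from 0.36 to 1.45 and Fosl2 from -0.32 to 0.56. The number of members that followed the heat shock score at an adjusted p under 0.05 was 0, and ranged from 0 to 1 when sgRosa 3 or sgRosa 4 was left out (Fos, r = 0.91, exact permutation adjusted p = 0.0292 without sgRosa 3). Leaving out any other library left 5 samples, fewer than the 6 required here for a tested correlation, and was not run. The r values over 4 samples are descriptions without a test. The r of Fosl2 was -0.0090 without sgRosa 4, 0.053 without sgRosa 3 and -0.15 as deviations from the group means, where that of Jund was 0.19. The replicate numbers were taken as a replicate block with 0 genes called, 705 at an unadjusted p under 0.05 and a log2 fold change of 1.35 for Fos (adjusted p = 0.701, against 1 at most over its refits). In that block fit 4 members had an unadjusted edgeR p under 0.05: Fos (0.000141), Jun (0.00117), Fosb (0.00737) and Atf3 (0.0411). Same-numbered samples deviated together at r = -0.11, 0.52 and 0.55. The nearest sgEgfr sample bore the same number for sgRosa 2 and 3, but for sgRosa 1 it was sgEgfr 3. The labels do not describe the numbers as pairs, and the main fit did not take them as pairs. In the shallowest library 3 counts stood for 0.513 CPM, which limits Fosl1.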

Other observations

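Cyr61, which encodes a matrix protein of the CCN family and is itself an immediate early gene, is given here after its values were seen. It stood at 8.96, 24.6 and 23.0 CPM with sgRosa and at 31.5, 32.9 and 237 CPM with sgEgfr. Like Atf3, it stood far higher in sgEgfr 3 than elsewhere, and its log2 fold change was 2.42 (SE 0.84, edgeR adjusted p = 0.997). Btg2, an antiproliferative immediate early gene, was likewise at 782 CPM in sgEgfr 3, 325 CPM in sgEgfr 2 and 86.9 to 167 CPM in the other 4 samples.

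The immediate early genes Arc and Npas4 are best known from neurons. Arc, which acts at synapses, stood at 179.5, 156 and 119 CPM with sgRosa and at 95.2, 160.3 and 86.1 CPM with sgEgfr (log2 fold change -0.41, SE 0.27, edgeR adjusted p = 0.997). Npas4, a neuronal activity factor, lay between 0.494 and 1.31 CPM in all 6 samples (log2 fold change 0.41, SE 0.55, edgeR adjusted p = 0.997). These genes, too, were chosen after their values were seen.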
